A study of Mus musculus with 2 samples.

Results

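The cells described here were selected on measured values of Gata1, Klf1 and Aqp1 among cultured mouse hematopoietic stem cells (HSC). GATA1 is the zinc-finger transcription factor that red cell precursors and megakaryocytes both need. KLF1 is the red cell Krüppel-like factor, and AQP1 is the water channel of the red cell membrane. Cells with no molecule of the platelet-lineage genes Clec1b, Serpinb2 and Ppbp were eligible, which left 16443 of 18560 cells. They were ranked by the mean deposited natural log value of Gata1, Klf1 and Aqp1, and the top 10% were taken over both libraries together. This gave 1644 cells, called the set below, of which 942 came from the vehicle library and 702 from the DFO library. The other 14799 eligible cells are called the remaining cells, and the 2117 cells with Clec1b, Serpinb2 or Ppbp are called platelet-marker cells.

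The source was bone marrow pooled from 8 C57/B6 mice aged 6 to 8 weeks, sorted as lineage-negative, Sca-1+, c-Kit+, CD150+, CD48- cells. All cells were grown with stem cell factor at 100 ng/ml, thrombopoietin at 50 ng/ml and the antibiotic Primocin at 200 µg/ml. For 48 h, one culture also received sterile water (vehicle) and the other DFO (deferoxamine, an iron chelator) at 10 µM. The comparison asks how iron chelation changes the transcripts of HSC. Each group is 1 library of pooled mice, so no difference between groups could be checked against replicates and none has a p-value. Levels are CPM, the count of a gene's transcript molecules (UMIs) summed over cells and scaled to 1000000 molecules. Differences are between values of log2 of (CPM + 1), and 2-fold means a difference of 1 on that scale. The intervals are exact at 95% (Poisson for levels, Clopper-Pearson for shares) and cover counting error only.

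Red cells and platelets arise from progenitors that have much in common. GATA1, its cofactor FOG1 (Zfpm1), GFI1B and TAL1 act in both lineages, whereas KLF1 favours red cell genes over platelet genes. Red cell formation then depends on the erythropoietin receptor, on iron brought in by the transferrin receptor, and on heme synthesis, whose last enzyme inserts iron. A maturing red cell precursor is recognised by globin, band 3 and ALAS2 transcripts. Thrombopoietin, present in both cultures, is the main growth factor of megakaryocytes.

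The score cutoff was 0.4388, the highest value outside the set was 0.4387, and 11805 of the eligible cells (71.8%) had a score of 0. The 100th cell inside the cutoff scored 0.455 and the 100th outside 0.422. Because the deposited values are scaled by each cell's total, 1 molecule of 1 of the 3 genes was enough below about 10040 UMIs, and 62 members (3.77%) were chosen on a single molecule. The highest score, 2.93, belonged to a vehicle cell. Before thinning, a molecule of Gata1 was found in 92.3% of vehicle and 91.7% of DFO members, of Aqp1 in 59.7% and 51.7%, and of Klf1 in 34.3% and 26.9%. With every cell thinned to 10000 UMIs, which left out 47 vehicle and 42 DFO members, the shares were 65.0% and 67.1%, 33.7% and 26.4%, and 19.3% and 12.9%. The 1% of cells highest in the granulocyte genes Mpo, Elane, Ctsg and Prtn3 should lack Klf1. Before thinning, a Klf1 molecule was found in 0.962% of 104 such vehicle cells and 1.22% of 82 such DFO cells. Median depth was 24842.5 and 25505.5 UMIs in the set, and 26060 and 23164 in those granulocyte-gene cells. All 3 genes were present together in 147 vehicle members (15.6%) and in 66 DFO members (9.40%). These values describe the choice of cells and carry no test.

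Promoter sequences of the choosing genes and of 2 leading genes show whether letters known as binding motifs of GATA factors and KLF1 occur there. They are the 250 bases before the start site from RefSeq (GRCm38.p6), 5′ to 3′ on the gene's strand. Capitals mark a GATA match, which is AGATAA or its variant TGATAA, and CACCC, each on either strand.
Gata1 (chrX:7967911-7968160, minus strand): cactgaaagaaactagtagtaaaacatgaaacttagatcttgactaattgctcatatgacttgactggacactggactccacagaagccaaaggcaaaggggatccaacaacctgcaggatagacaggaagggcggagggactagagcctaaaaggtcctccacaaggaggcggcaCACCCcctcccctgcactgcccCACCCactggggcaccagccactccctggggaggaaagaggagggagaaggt
Klf1 (chr8:84901732-84901981, plus strand): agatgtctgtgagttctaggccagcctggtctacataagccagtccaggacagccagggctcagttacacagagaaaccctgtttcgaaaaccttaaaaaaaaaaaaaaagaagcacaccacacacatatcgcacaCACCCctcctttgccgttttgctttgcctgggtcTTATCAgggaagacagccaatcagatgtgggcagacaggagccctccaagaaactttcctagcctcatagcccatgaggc
Aqp1 (chr6:55336049-55336298, plus strand): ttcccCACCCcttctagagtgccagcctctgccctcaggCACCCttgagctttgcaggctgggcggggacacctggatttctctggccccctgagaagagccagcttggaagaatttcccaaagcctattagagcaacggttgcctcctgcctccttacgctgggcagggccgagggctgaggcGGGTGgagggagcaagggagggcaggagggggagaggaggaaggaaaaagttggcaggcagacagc
Epor (chr9:21963577-21963826, minus strand): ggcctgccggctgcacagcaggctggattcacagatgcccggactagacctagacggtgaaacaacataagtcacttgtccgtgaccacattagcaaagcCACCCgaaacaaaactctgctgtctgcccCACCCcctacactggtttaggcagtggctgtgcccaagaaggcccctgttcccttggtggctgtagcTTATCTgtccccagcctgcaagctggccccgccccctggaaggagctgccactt
Gp5 (chr16:30310782-30311031, minus strand): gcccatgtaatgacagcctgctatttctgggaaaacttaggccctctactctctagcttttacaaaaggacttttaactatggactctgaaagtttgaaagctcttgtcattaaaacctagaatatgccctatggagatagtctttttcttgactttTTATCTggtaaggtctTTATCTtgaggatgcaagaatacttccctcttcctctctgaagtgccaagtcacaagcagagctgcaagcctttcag
Gp5 holds 2 GATA matches and no CACCC, Klf1 and Epor hold 1 GATA match each, and Gata1 and Aqp1 hold CACCC only, at 2 and 3 places. These 5 promoters were picked after the expression values had been seen.

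Members made up 10.8% of all vehicle cells (942 of 8708, interval 10.2 to 11.5) and 7.13% of all DFO cells (702 of 9852, interval 6.63 to 7.65). Of the eligible cells they were 12.8% (12.03 to 13.57) and 7.74% (7.19 to 8.31). These intervals cover the counting of cells within 1 library per group, so they are no check against replicates. The shares follow from the rule's cutoff over both libraries together and are a description. Cells could be called female by Xist or male by Y-linked genes, and the order was the same in each. Among female cells the shares were 10.4% in vehicle and 6.97% in DFO, and among male cells 11.3% and 7.16%. Both sexes came from the same libraries, so this order is no check against replicates either. Platelet-marker cells were also fewer under DFO, at 7.90% (7.37 to 8.45) against 15.4% (14.6 to 16.2). The score within the set differed too, with a median of 0.630 in vehicle and 0.581 in DFO members.

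**Figure D1:**
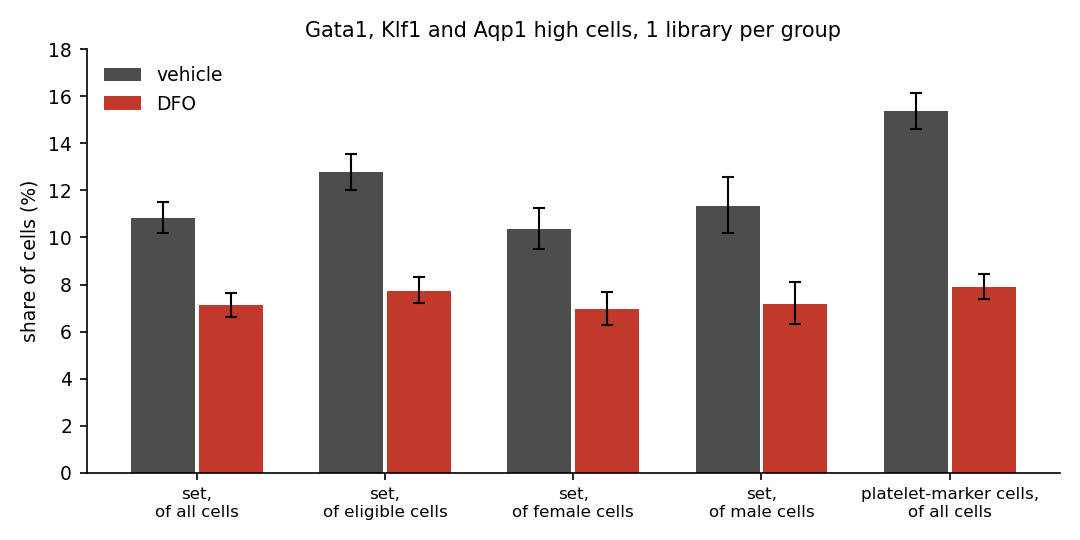
Share of cells (%, y axis) in vehicle (grey) and DFO (red) libraries, with exact 95% Clopper-Pearson intervals as error bars, for the set by 4 denominators and for the platelet-marker cells. The DFO bar is the lower one in each pair, 7.13% against 10.8% for the set among all cells.

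Facts of the libraries that touch these cells are as follows. The libraries share 24 barcodes, which 1 set cell in each library carries, and without these barcodes the shares were 10.8% and 7.12%. Median depth differed little between groups of cells, from 24842.5 UMIs in the vehicle set to 27238 in the vehicle remaining cells, with 33584.5 to 35791 in the platelet-marker cells. The median mitochondrial share was 3.50% in vehicle and 3.94% in DFO members. Likely doublets made up 6.79% of vehicle members and 5.70% of DFO members, below the 8.98% and 9.38% of the remaining cells.

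Where the data bear on the label, the set carried red cell membrane genes, but the megakaryocyte list had the higher median. Of 7706 genes at 10 CPM or more, 84 (1.09%) were at least 2-fold higher in the set than in the remaining cells in both libraries, and 81 (1.05%) were at least 2-fold lower. Of these 84 genes, 83 were also higher in platelet-marker than in remaining cells of the vehicle library, and 82 in the DFO library. Of the 81 lower genes, 0 were in either library. The share over all compared genes is not given here. Against platelet-marker cells, 32 of the 84 were higher in the set and 43 lower in both libraries. By 2-fold in both libraries, 2 were higher and 5 lower. With Gata1 left out of the score, 43 genes were higher and 11 lower, and without likely doublets 90 and 98. The cells are named here by the 3 genes that chose them and not by a cell type. In the lists below, a gene was counted only if its mean level in the set over both libraries was 5 CPM or more, so genes with little RNA in the set are missing from the counts and medians. Over all 8762 genes at that level, 3599 were higher in the set in both libraries and 3369 lower in both, and list counts are read beside these.

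Of the lists compared, that of megakaryocyte and platelet genes had the highest median, while the gene ranked first by the smaller of its differences in the libraries was Csrp3, described further on. Gp5, a subunit of the von Willebrand factor receptor of platelets, was at 86.7 CPM (83.0 to 90.4) in vehicle and 68.0 CPM (64.3 to 71.8) in DFO members. Its level in the remaining cells was 18.1 and 13.7 CPM. Treml1, a receptor of platelet granules, was at 46.2 and 21.4 CPM in the set against 8.18 and 3.92 CPM in the remaining cells. Cavin2, a caveolar coat protein, was at 24.2 and 20.3 CPM in the set against 4.32 and 3.33 CPM. For each of these genes both set values lay above both remaining values. Pf4, the platelet chemokine, was already at 481 and 266 CPM in the remaining cells and stood at 1880.0 and 1072 CPM in the set, still below the 4573 and 2971 CPM of platelet-marker cells. A molecule of Pf4 was seen in 88.9% of remaining vehicle cells and 98.2% of vehicle members, and after thinning to 10000 UMIs per cell in 70.3% and 95.6%. The granulocyte-gene cells showed Pf4 in 80.8% of vehicle and 64.6% of DFO cells, or 55.2% and 33.3% after thinning. Whether these molecules were made by those cells was not tested, so a molecule of Pf4 alone is not read as a mark of a cell type. Of 25 members of the megakaryocyte list at 5 CPM or more, 23 were higher in the set in both libraries and 2, Selp and Nbeal2, were lower in both. The list's median difference was 1.34 in vehicle and 1.31 in DFO, beside medians near 0 (-3.7e-05 and 0.008) over the 8762 genes at that level. Of the 23 list members at 10 CPM or more, 15 were 2-fold higher in both libraries.

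The other leading genes belonged to several functions. Mfsd2b, an exporter of sphingosine-1-phosphate in red cells and platelets, was at 22.3 and 13.0 CPM in the set against 3.59 and 2.04 CPM in the remaining cells. Csrp3, a muscle LIM protein, was at 24.0 and 12.7 CPM against 3.66 and 1.74 CPM. Alox5, the 5-lipoxygenase of leukotriene synthesis, was at 60.0 and 44.4 CPM against 15.2 and 10.5 CPM. The remaining names among the 15 highest were Samd14, Gm15915, Ccdc180, Nt5e, Ces2g, Smim1, F2rl2 and Tesc. Ces2g, a carboxylesterase, was the one among these 15 at least 2-fold above platelet-marker cells in vehicle (13.2 against 5.60 CPM). Its DFO values were 11.999 against 6.13 CPM, a log2 difference of 0.87.

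The promoters of the leading genes were searched for the motifs shown above. Of the 84 genes higher in the set, 74 had a promoter in the RefSeq table, and 12 of their 88 windows held a GATA match (13.6%, interval 7.25 to 22.6). Over the promoters of the genes compared the share was 8.84%, and over all 32851 promoters 16.6%. CACCC was found in 61.4% of the windows of the higher genes and in 55.7% of those of the genes compared. A match is a description of the letters, not a binding site.

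Genes of the red cell membrane and its blood group antigens came next, with a list median of 0.90 in vehicle and 0.59 in DFO. Of 15 members at 5 CPM or more apart from Aqp1, 12 were higher in the set in both libraries and 1 lower, and of 14 at 10 CPM or more, 6 were 2-fold higher in both. Slc14a1, the urea channel that carries the Kidd blood group, was at 52.9 and 47.2 CPM in the set against 14.5 and 12.6 CPM in the remaining cells. Cd55, which protects red cells from complement, was at 44.6 and 44.6 CPM against 14.3 and 13.2 CPM. Icam4, an adhesion molecule of erythroblasts, was at 50.4 and 41.3 CPM against 19.4 and 17.5 CPM. Tspan33, a tetraspanin of erythroid progenitors, was at 31.5 and 23.3 CPM against 8.13 and 7.59 CPM. Tmod1, which caps actin filaments of the membrane skeleton, was at 14.4 and 11.1 CPM against 4.31 and 3.27 CPM. The set values of all 5 genes lay above both remaining values. Slc14a1 was as high or higher in platelet-marker cells (58.8 and 50.9 CPM), as was Smim1, at 14.2 and 7.80 CPM there against 12.6 and 5.65 CPM in the set, whereas Cd55 (24.5 and 21.9 CPM), Icam4 (31.6 and 26.9 CPM) and Tspan33 (12.7 and 12.3 CPM) were lower there than in the set. The exception was Slc29a1, a nucleoside transporter, at 16.1 and 18.3 CPM in the set against 38.9 and 45.4 CPM in the remaining cells.

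**Figure D2:**
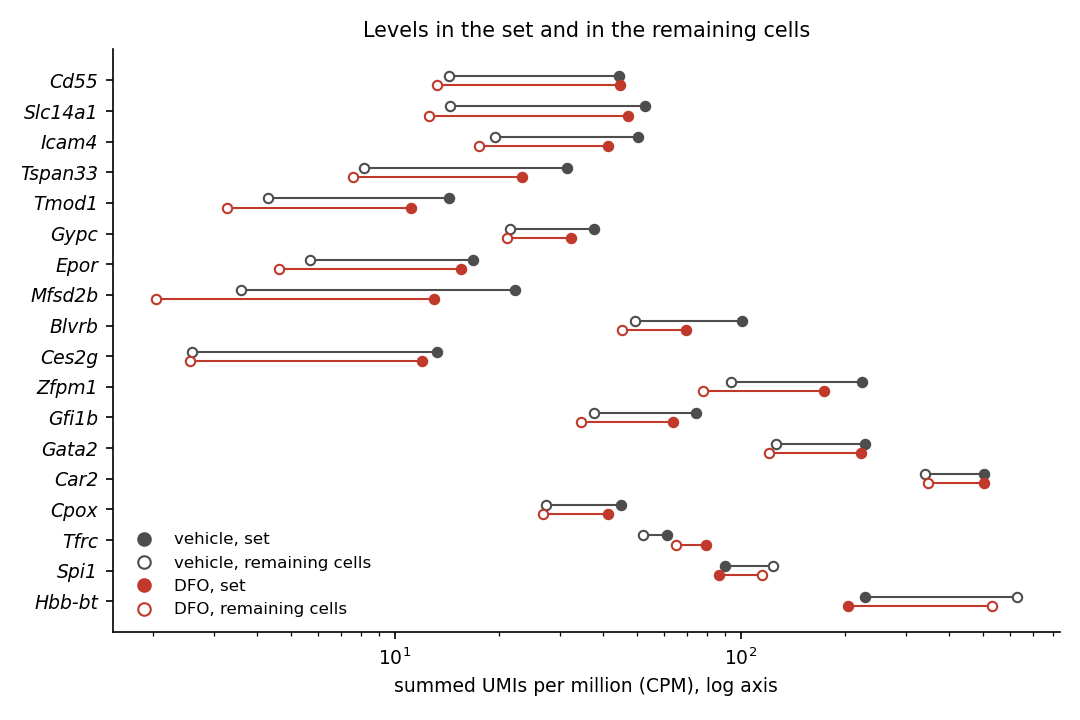
Level in CPM (log x axis) of 18 genes in the set (filled circles) and in the remaining cells (open circles), vehicle in grey and DFO in red, with a line joining the values of one library. Most lines run from a lower open to a higher filled circle, and those of Spi1 and Hbb-bt run the other way.

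Transcription factors of the lineage differed in both directions. Zfpm1, the GATA1 cofactor, was at 224.7 and 174.6 CPM in the set against 93.6 and 77.8 CPM in the remaining cells, and was the only factor tested beside the choosing genes that passed the 2-fold rule. Gfi1b, a repressor needed for red cells and platelets, was at 74.0 and 63.8 CPM against 37.6 and 34.5 CPM. Gata2, which precedes GATA1 in the lineage, was at 228 and 222 CPM against 126 and 120.3 CPM. Mef2c, Runx1 and Fli1, which act in megakaryocytes, had differences of 0.77 and 0.75, 0.62 and 0.56, and 0.67 and 0.48. Tal1 differed by 0.50 in each library. Lower in the set were Spi1, the myeloid factor PU.1 that opposes GATA1, with 90.3 and 86.5 CPM against 124 and 115 CPM, and Myb, Lyl1 and Ikzf1. In all, 14 of 25 factors were higher in both libraries and 8 lower, with list medians of 0.25 and 0.17.

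Epor, the erythropoietin receptor, was at 16.9 CPM (15.3 to 18.6) in vehicle and 15.6 CPM (13.8 to 17.5) in DFO members. It was at 5.69 and 4.62 CPM in the remaining cells. A molecule was found in 33.7% and 33.9% of members, against 13.3% and 11.3% of remaining cells and 2.88% and 2.44% of granulocyte-gene cells. After thinning the shares were 14.1% and 14.1% against 5.49% and 4.49%. Podxl, a sialomucin that erythropoietin can induce, was at 36.6 and 36.7 CPM against 15.3 and 16.1 CPM. Kit, the stem cell factor receptor, was lower in the set at 25.6 and 34.1 CPM against 41.0 and 42.6 CPM, and Socs2 and Ptpn6, inhibitors of cytokine signalling, were lower as well. The list of 17 receptor signalling genes was split, with 10 higher and 5 lower in both libraries and medians of 0.18 and 0.19.

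Heme and iron genes stood nearer to the remaining cells. Among 23 heme genes, 13 were higher in both libraries and 4 lower, with medians of 0.15 and 0.17, and none passed the 2-fold rule. Cpox, the coproporphyrinogen oxidase, was at 45.2 and 41.3 CPM against 27.4 and 26.8 CPM. Blvrb, biliverdin reductase B of red cells, was at 100.7 and 69.4 CPM against 49.6 and 45.2 CPM. Of 13 iron genes, 7 were higher and 5 lower, with medians of 0.01 and 0.04. Slc11a2 (DMT1, the iron transporter) and Steap3 (the endosomal iron reductase) were the highest of them, with differences of 0.52 and 0.42 for each. Ncoa4, which delivers ferritin for breakdown, was lower at 47.4 and 47.0 CPM against 64.6 and 64.6 CPM.

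Of the genes of red cell maturation described here, Hba-a1 was near 0, Car1 was found in few cells, and Hbb-bt was not near 0. Alas2, Ahsp, Slc4a1, Epb42 and Ermap were not analysed here. Hba-a1 was at 0.489 and 0.053 CPM. Hbb-bt, a beta globin of the adult, was lower in the set than in the remaining cells, at 229 and 204.5 CPM against 628 and 533 CPM. It was found in 57.4% and 55.8% of members and in 74.1% and 73.9% of remaining cells, or after thinning in 41.0% and 42.9% against 63.0% and 63.9%. The granulocyte-gene cells had it in 50.0% and 52.4% of cells. Car1, a carbonic anhydrase of early erythroid progenitors, had 62 molecules in 31 vehicle members and 4 molecules in 4 DFO members. The remaining cells held 13 molecules in 10 of 6427 vehicle cells and 4 molecules in 4 of 8372 DFO cells. After thinning, Car1 was found in 2.12% and 0.152% of members against 0.049% and 0.050% of remaining cells. Of the 62 molecules in vehicle members, 27 lay in 4 cells. Car2, the related enzyme that HSC also express, was at 505 and 506 CPM against 341 and 348 CPM. Hba-a1 and Car1 were named after their values were seen. The early erythroid progenitor list of 21 genes held 14 that were higher and 6 that were lower in both libraries, with medians of 0.28 and 0.25. Its highest members after Mfsd2b and Ces2g were Mt2, at 18.2 and 15.9 CPM against 5.73 and 4.34 CPM, and Prkar2b, at 292 and 287 CPM against 140.4 and 135 CPM.

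**Figure D3:**
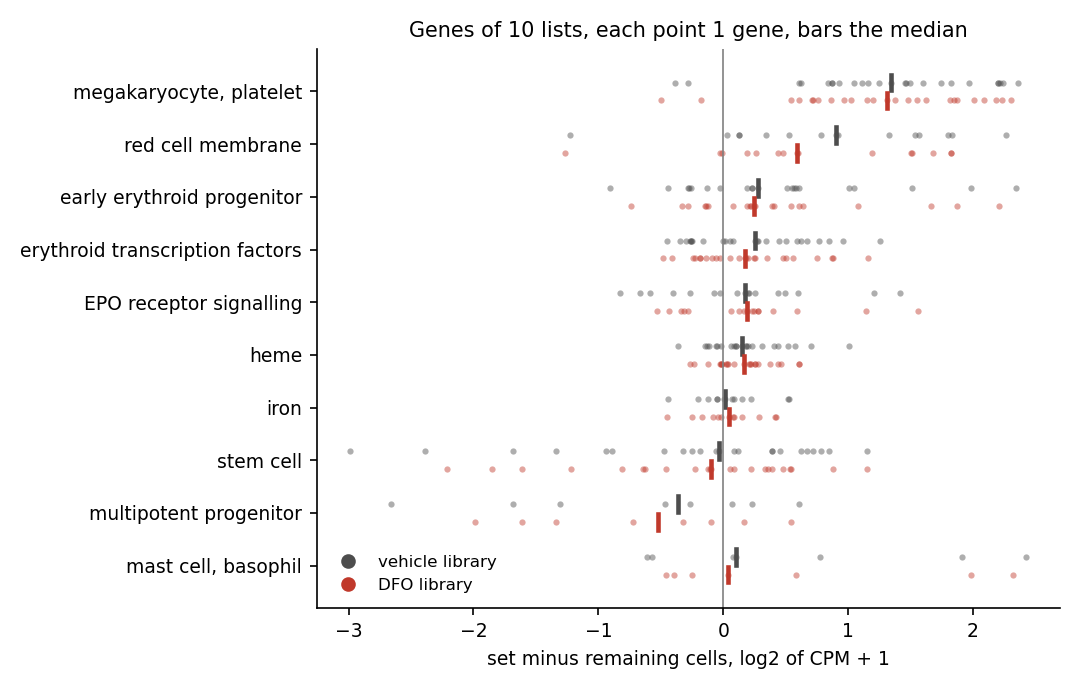
Difference between the set and the remaining cells (log2 of CPM + 1, x axis) for the genes of 10 lists, each point 1 gene in 1 library and each bar the list's median, vehicle in grey and DFO in red. The megakaryocyte list lies furthest to the right, with medians of 1.34 and 1.31, and the heme and iron lists lie close to 0.

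Stem cell genes differed in both directions, in a split near that of all genes at 5 CPM or more. Ly6a, the gene of the sorting antigen Sca-1, was at 12.8 and 26.4 CPM in the set against 108.6 and 126 CPM in the remaining cells. Hlf, a transcription factor of HSC, was at 14.3 and 21.4 CPM against 79.0 and 79.9 CPM. Slamf1, which encodes the sorting antigen CD150, went the other way with 26.2 and 24.2 CPM against 11.2 and 10.4 CPM. Over the 23 stem cell genes at 5 CPM or more, 10 were higher and 11 lower in both libraries, with medians of -0.03 and -0.10. These leave out genes low in the set such as Procr, the HSC surface receptor EPCR, at 0.693 and 0.907 CPM against 6.69 and 6.57 CPM. Of the 8 multipotent progenitor genes at 5 CPM or more, Cd53, a tetraspanin, and Cd34, an adhesion molecule, were among the lower ones, and Cd34 was at 55.3 and 53.6 CPM against 180 and 166 CPM. Flt3, a receptor of multipotent and lymphoid progenitors below that level, was at 1.83 and 1.33 CPM against 10.9 and 9.83 CPM. Procr and Flt3 were named after their values were seen. The 10 lowest genes were Ccl9, Camk2d, Parp8, Cfp, Hk3, Clec4e, Myl10, Ly6a, Ablim1 and Pglyrp1, several of them genes of myeloid cells. The chemokine Ccl9 was at 5.42 and 4.75 CPM against 38.1 and 30.2 CPM. Of neutrophil and monocyte markers only 3 reached 5 CPM in the set, and Prtn3 was at 68.7 and 54.5 CPM against 194 and 165 CPM. The mast cell and basophil list had medians of 0.10 and 0.04 over 7 genes, and Csrp3 and Alox5 are also on it.

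Levels differed from group to group along the score, which was cut into 5 groups because most cells scored 0. In vehicle cells from score 0 to the upper part of the set, Gp5 was at 8.45, 36.5, 59.6, 75.5 and 98.0 CPM. Zfpm1 was at 73.5, 133, 178, 207 and 242 CPM, and in DFO cells at 64.8, 108, 142, 165 and 188 CPM. Ly6a ran in the other direction, at 127, 64.2, 40.7, 16.9 and 8.77 CPM in vehicle cells. For DFO cells the Ly6a values were 141, 84.5, 54.6, 30.8 and 19.8 CPM. Spi1 was at 132, 100.0, 95.5, 85.3 and 95.4 CPM in vehicle cells. Median depth ran from 26532 UMIs at score 0 through 32533, 25275 and 27073 to 23079 in the upper part of the vehicle set. Since the score uses the same cells, these levels are a description.

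**Figure D4:**
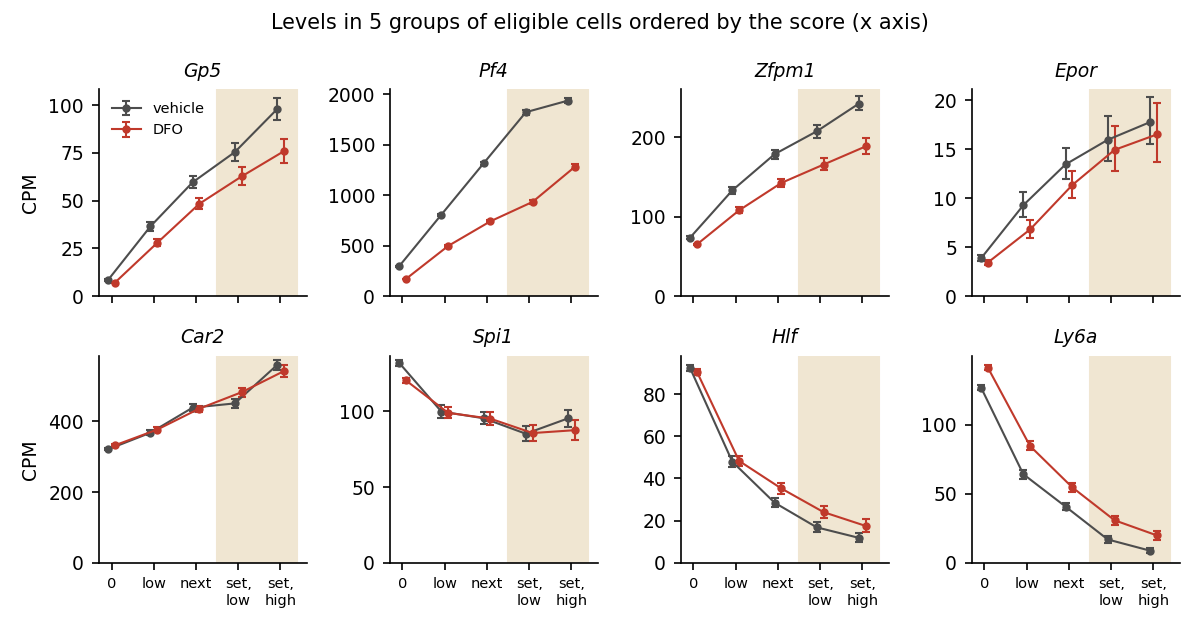
Level in CPM (y axis, from 0) of 8 genes in 5 groups of eligible cells ordered by the score (x axis: score 0, lower and upper part of the scores above 0 outside the set, lower and upper part of the set), with exact 95% Poisson intervals, the set shaded, vehicle in grey and DFO in red. Gp5, Pf4, Zfpm1, Epor and Car2 stand higher and Hlf and Ly6a lower in the set than at score 0.

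Among themselves, members were compared by whether a Klf1 or an Aqp1 molecule was found. Between the 323 vehicle members with Klf1 and the 619 without, the median differences of the factor, receptor, heme, iron, membrane, early erythroid and megakaryocyte lists ran from -0.10 (megakaryocyte) to 0.16 (membrane). In DFO members the same 2 lists stood at -0.02 and 0.002. Members with Klf1 had more Ces2g (16.6 against 11.4 CPM in vehicle, 16.1 against 10.3 CPM in DFO) and a similar Gp5 level (87.4 against 86.3 CPM, and 65.9 against 68.9 CPM). Those with an Aqp1 molecule stood higher for the megakaryocyte list, by a median of 0.26 over 25 genes in vehicle and 0.35 in DFO. In each library 23 of the 25 genes were higher. The same split over all genes is not given here, so this count is not read as particular to the list. With and without Aqp1, Pf4 stood at 2036 and 1636 CPM in the vehicle set, and at 1307 and 785 CPM in the DFO set. Depth was close in these splits, with medians of 25088 and 24714 UMIs for vehicle members with and without Aqp1. Members without a molecule of one choosing gene had to enter on the other choosing genes, so both splits use values of the rule and are a description.

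Of 7494 genes at 10 CPM or more in the set of at least 1 library, 20 (0.267%) were higher in DFO members by 0.5 or more on the log2 scale and 51 (0.681%) were lower, the choosing gene Klf1 among these 51. With the median difference set to 0 the split was 12 higher and 70 lower. Called separately at the same cutoff, 100 genes were lower and 49 higher in female cells, and 116 and 72 in male cells. In both sexes 35 genes were lower and 11 higher, 32 and 9 of them among the 51 and the 20. These female and male cells are members already counted in the same libraries. The overlap is therefore partly built in and is no check against replicates. Over the 8762 genes at 5 CPM, 56.4% were higher and the median was 0.02, against a median of 0.01 in the remaining cells. All 51 lower genes were also lower in the remaining cells under DFO, 10 of them by 0.5 or more. Of the 7494 genes, 43.4% were lower in the remaining cells. The medians of the 51 were -0.64 in the set and -0.36 in the remaining cells. Klf1 is counted in the 51, but the rule limits its level in the remaining cells, so nothing is read from its values.

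Platelet-lineage genes were among the lower ones. Treml1 was at 46.2 CPM (43.6 to 49.0) in vehicle and 21.4 CPM (19.3 to 23.6) in DFO members, a difference of -1.08, and differed by -0.90 in the remaining cells and -1.02 in platelet-marker cells. Pf4 differed by -0.81 in the set and by -0.85 in the remaining cells. Tesc, a calcium-binding protein of the megakaryocyte list, was at 26.4 and 14.2 CPM, a difference of -0.85 against -0.45 in the remaining cells. In total 21 of 25 megakaryocyte genes were lower in DFO members, 6 by the fold rule, and 4 were higher, among them Serpine2, a protease inhibitor, by 0.57. The list's median was -0.24 in the set, -0.16 in the remaining cells and -0.23 in platelet-marker cells. The share of members in G1 also differed: 11.4% of 895 vehicle members (9.39 to 13.7) and 4.24% of 660 DFO members (2.84 to 6.07) after thinning. In the remaining cells it was 8.66% in vehicle and 5.34% in DFO, and in platelet-marker cells 3.33% and 3.64%. With both libraries given equal phase shares, 37 genes were lower and 16 higher. Whether the phases account for the list's values was not tested.

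Red cell membrane genes were lower in 12 of 15 cases, with a median of -0.16 against -0.09 in the remaining cells. Smim1, which carries the Vel blood group, was at 12.6 CPM (11.2 to 14.1) in vehicle and 5.65 CPM (4.63 to 6.84) in DFO members, a difference of -1.03. Cd59a, an inhibitor of complement, was at 11.7 and 7.04 CPM, a difference of -0.66. Tspan33 differed by -0.42 and Tmod1 by -0.34, short of the rule, and Cd55 by 0.002. Among the choosing genes, which carry no test, Gata1 was level at 95.9 and 94.5 CPM, while Klf1 was at 18.3 and 12.3 CPM and Aqp1 at 39.0 and 30.4 CPM. Of 25 transcription factors 18 were lower and 7 higher, none by the rule, with Zfpm1 at -0.36 and Gata2 at -0.03.

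Heme and iron genes showed a mixed picture. In the heme list 13 genes were lower and 10 higher, with a median of -0.03 that changed sign under some alternatives (-0.07 to 0.04). Blvrb alone passed the rule, at 100.7 CPM (96.8 to 104.8) in vehicle and 69.4 CPM (65.7 to 73.3) in DFO members, a difference of -0.53 against -0.13 in the remaining cells. Ppox, protoporphyrinogen oxidase, differed by -0.34 and Fech, the enzyme that inserts iron into heme, by 0.03. Tfrc, the transferrin receptor whose messenger RNA is stabilised when iron is scarce, was at 61.2 CPM (58.1 to 64.3) in vehicle and 79.5 CPM (75.5 to 83.7) in DFO members. Its difference of 0.37 was short of the rule and was 0.31 in the remaining cells. The ferritin genes Fth1 and Ftl1, whose control by iron is mostly on translation, differed by -0.001 and 0.13. Pcbp1, an iron chaperone, differed by 0.26. Over the 13 iron genes the median was -0.01 (-0.06 to 0.06 under the alternatives), with 5 higher and 8 lower.

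Of genes in cytokine signalling, Sh2b3 (LNK), which restrains thrombopoietin and erythropoietin receptors, was at 8.03 CPM (6.95 to 9.23) in vehicle and 12.6 CPM (11.1 to 14.4) in DFO members, a difference of 0.60 against 0.05 in the remaining cells. Kit was at 25.6 and 34.1 CPM, a difference of 0.40 against 0.05. Cish and Socs1, feedback inhibitors induced by STAT5, differed by 0.38 and 0.33 in the set and by 0.34 and 0.27 in the remaining cells. Epor differed by -0.11 and Jak2, its kinase, by -0.27. Apoe, an apolipoprotein on the early erythroid progenitor list, was at 35.6 and 18.7 CPM, a difference of -0.89 against -0.53 in the remaining cells.

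The lowest difference of all was that of Hbb-bs, the other adult beta globin, at 13.9 CPM (341 molecules) in vehicle and 2.45 CPM (46 molecules) in DFO members. One vehicle cell held 30.2% of the vehicle molecules, and without the largest cell of each library the difference of -2.11 became -1.77. In the vehicle set, 13 cells with 5 or more Hbb-bs molecules held 237 of the 341. A molecule of Hbb-bs was seen in 9.02% of vehicle and 5.27% of DFO members, against 6.75% and 5.54% of remaining cells. When platelet-marker cells were allowed into the ranking, the difference was 0.065, with 1 platelet-marker DFO cell holding 185 of the 264 molecules of its group.

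**Figure D5:**
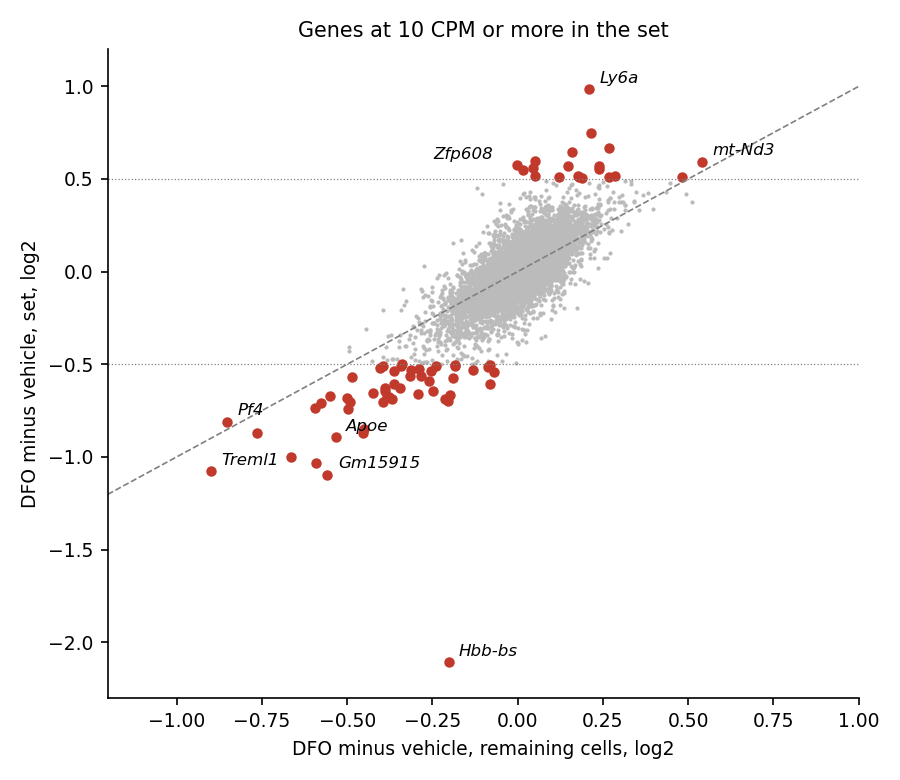
Difference between DFO and vehicle (log2 of CPM + 1) in the set (y axis) and in the remaining cells (x axis) for the genes at 10 CPM or more in the set, in red those past 0.5 in the set (dotted lines), with equal differences on the dashed line. Hbb-bs lies lowest at -2.11, and Ly6a highest at 0.99.

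The 10 highest genes were Ly6a, Casp12, Bex1, Myl10, Sh2b3, mt-Nd3, Zfp608, Serpine2, Afp and Casp1. Ly6a was at 12.8 CPM (11.5 to 14.3) in vehicle and 26.4 CPM (24.1 to 28.8) in DFO members, a difference of 0.99 against 0.21 in the remaining cells. Before thinning, a molecule was seen in 16.5% and 24.9% of members, and in 29.8% and 25.6% of granulocyte-gene cells. After thinning the shares were 8.16% and 12.9% of members, and 13.5% and 23.2% of granulocyte-gene cells. No order is read from these shares. Myl10, a myosin light chain, was at 31.1 and 49.2 CPM, a difference of 0.65 against 0.16. Hlf differed by 0.55 against 0.01 in the remaining cells. Of 23 stem cell genes, Ly6a and Hlf passed the rule upward and Pdzk1ip1, at 35.7 and 22.8 CPM, passed it downward with -0.63. The mitochondrially encoded mt-Nd3 was at 647 and 977 CPM, a difference of 0.59 against 0.54 in the remaining cells. Of the 13 mitochondrial genes 12 were higher, mt-Nd1 next with 0.37, and the list's median was 0.21 against 0.14. None of these 10 genes held more than 6.61% of its molecules in 1 cell in either library of the set.

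The genes that differed between the set and the remaining cells were also followed under DFO. Both comparisons use the vehicle set's values, so nothing is read from their overlap. Of the 84 set-high genes 74 were lower in DFO members, with a median of -0.28 against -0.21 for the same genes in the remaining cells. Of the 81 set-low genes 55 were higher and 26 lower, with a median of 0.18 against -0.03. Among the 7494 genes at 10 CPM or more in the set, 57.2% were higher and 42.8% lower. DFO members scored lower than vehicle members within the set, as given above, and whether this accounts for these values was not tested.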

How the data were processed

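Transcripts were measured by 10x 3′ single-cell RNA sequencing in 1 vehicle and 1 DFO library, of 8708 and 9852 cells. The values the authors deposited are natural log values, ln(1 + UMIs × 27408 / the cell's total), per cell and gene, for 14366 genes. The submitters' processing notes name FastQC 0.11.9, Trim Galore 0.6.5, Cell Ranger 3.0.2 and mm10, with no role or order, and of the filter on cells nothing is stated in the labels or files. Whole UMIs were recovered from the deposited values: 100% came out within 0.05 of a whole number, in sum 260938938 for vehicle and 284326017 for DFO.

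UMIs were summed per library over the set, the remaining and the platelet-marker cells and scaled to CPM, so that each sum is 1000000. Differences are log2 of CPM plus a pseudocount of 1. With 1 library per group no test was run. A gene was called between libraries at a difference of 0.5 or more, with at least 10 CPM in the set, and between the set and the remaining cells at 1 or more in both libraries. Gene lists were described for members of at least 5 CPM. The members, lists and rules were chosen with earlier results of these data known. All members of the red cell lists could be named, with the 10 highest and 10 lowest genes under DFO, the 15 highest and 10 lowest of the set, and the 2 highest and 2 lowest of any other list.

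Shares of cells with a molecule are before thinning unless thinning is named. Cell cycle phases were taken from cells thinned to 10000 UMIs. Scrublet by itself called 5 cells in all and so had not worked. Cells with molecules of both sexes, or in the highest 8% of the Scrublet score of their library, were treated as likely doublets, kept, and left out in an alternative. A split of the score into equal groups could not be made because 71.8% of eligible cells scored 0, so 5 groups were used. The calculation was tested on simulated data. Scanpy 1.11.5 ran under Python 3.11.15 with anndata 0.12.19, matplotlib 3.10.9, pandas 2.3.3, numpy 2.4.6 and scipy 1.17.1. Alternatives changed the cutoff, exclusion, score genes, depth, cell filter, doublets, combination of cells, pseudocount, minimum level, scaling, sex and phase. Leaving out the largest cell, cells under 10000 UMIs or shared barcodes was chosen after seeing the data.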

Additional observations from a re-analysis of the deposited data

Results flagged for a closer look

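Zfp608, a zinc finger protein gene, was higher in DFO members and level in the remaining cells, where its difference had a minus sign. Vehicle members had 7.91 CPM and DFO members 12.3 CPM, a log2 difference of 0.575. Both libraries of the remaining cells had 29.4 CPM, a difference of -0.002. In platelet-marker cells the difference was 0.449. With 1 library per group the difference between these differences was not tested.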

How the results depend on the processing

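The share of cells in the set was higher in vehicle than in DFO under every alternative run. It was 5.89% against 3.14% with the highest 5% taken, 19.8% against 15.8% with the highest 20%, 18.8% against 14.6% with the score taken after thinning (where ties made the set larger), and 13.5% against 6.90% with no exclusion. The 20 genes higher and 51 lower under DFO became 84 and 114 with the highest 5%, 9 and 27 with the highest 20%, 9 and 33 after thinning, 32 and 87 with the mean over cells, 4 and 17 with a pseudocount of 10, 54 and 87 with a minimum of 5 CPM, 9 and 28 with 20 CPM, 49 and 100 in female cells, and 72 and 116 in male cells. The higher genes numbered 35 with no exclusion, 39 with Gata1 left out of the score, and 12 with the median set to 0. Against the remaining cells, 84 higher and 81 lower genes became 43 and 11 with Gata1 left out of the score and 24 and 31 with a pseudocount of 10. The lower ones were 41 after thinning, 123 with a minimum of 5 CPM and 45 with 20 CPM. Among the named genes past 0.5, Hbb-bs alone changed sign, to 0.065 with no exclusion. List medians near 0 changed sign under some alternatives: under DFO those of the receptor signalling (-0.02 to 0.09), heme (-0.07 to 0.04), iron (-0.06 to 0.06), early erythroid (-0.10 to 0.01), stem cell (-0.06 to 0.07), multipotent progenitor (-0.17 to 0.03), G2M and immediate early lists, and against the remaining cells those of the iron, mast cell, stem cell, S phase, G2M, hypoxia, glycolysis, MYC and ATF4 lists. The causes were not tested, other than that the minimum and the sexes change how many genes and cells enter. A value for a single gene was held the same if it stayed inside the counting interval of its main value. A list median was held the same if it moved by less than the spread over the list's genes. By these rules 4494 values stayed the same, 857 moved and 1 reversed its sign. No paired analysis was possible because each group is 1 library. Depth limits the genes near the minimum: 3 UMIs were worth 0.122 CPM in the vehicle and 0.160 CPM in the DFO set.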

Other observations

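Growth and stress genes that the text has not described also differed between DFO and vehicle members. Of 30 MYC target genes 28 were higher in DFO members, with a median of 0.21 against 0.13 in the remaining cells. Pno1, a ribosome assembly factor, was at 79.3 and 100.6 CPM. Of 21 genes of the ATF4 stress response 16 were higher, with a median of 0.16 against 0.08. Slc7a5, an amino acid transporter, was at 48.3 and 66.8 CPM, whereas Ddit3 (CHOP) was at 11.2 and 7.79 CPM. None of these passed the 0.5 rule. Over all 8762 genes 56.4% were higher, so a count of higher genes alone is not particular to a list.

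Genes of glycolysis, of the hypoxia response and of cholesterol synthesis were lower in 14 of 18, 17 of 24 and 19 of 22 cases, with medians of -0.13, -0.12 and -0.11. The medians in the remaining cells were -0.12, -0.12 and -0.11. Aldoc, the aldolase C gene, was at 12.5 and 5.76 CPM in the set, and Anxa2, a membrane-binding annexin, at 47.2 and 30.7 CPM. Both passed the rule. Hk2, hexokinase 2, went the other way with 26.8 and 35.5 CPM.

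In both libraries the set also had more of the immediate early genes Egr1 and Btg2 than the remaining cells. Egr1 was at 41.8 and 43.2 CPM against 17.5 and 17.05 CPM, and Btg2 at 33.5 and 22.3 CPM against 11.3 and 8.89 CPM. Among the 23 stem cell genes at 5 CPM or more, Ly6a, which encodes an antigen the cells had been sorted for before the culture, had the lowest difference from the remaining cells, -2.99 in vehicle and -2.21 in DFO.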
